A study of Mus musculus with 6 samples.

Results

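Kinesin genes that act in cell division were followed in primary mouse keratinocytes with and without iASPP, the protein encoded by *Ppp1r13l*. The 10 genes, kinesin motors of mitosis and cytokinesis, are *Kif11*, *Kif15*, *Kifc1*, *Kif22*, *Kif4*, *Kif2c*, *Kif18b*, *Kif23*, *Kif20a* and *Kif14*, out of 55367 gene names in the count table. These genes and the lists they are compared with were chosen with earlier results of these data known. Keratinocytes, the main cells of the epidermis, came from the skin of day-2 pups of *Ppp1r13l*flox/flox;Cre+ERT mice on a mixed C57BL/6 and 129/Sv background and were grown in low-calcium medium. The Cre recombinase is made from the ROSA26 locus, which is active in most cell types, and is switched on by tamoxifen. Each of 3 batches of cells was divided into an iASPP-KO culture given tamoxifen and an iASPP-WT culture of the same genotype without it, which gave 6 libraries with 3 per condition. Because the iASPP-WT cultures received no drug, effects of tamoxifen and of the deletion cannot be told apart. Ribosomal RNA was depleted and the rest was sequenced as single reads of 42 bases.

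Kinesins are motor proteins that use ATP to walk along microtubules or to take their ends apart. In a dividing cell they push the spindle poles apart, move chromosomes onto the spindle, adjust the length of its microtubules and help to build the midzone where the cell is cut. Most genes of the kinesins with these roles in division are silent in resting cells and are transcribed in G2 and M phase. A short promoter element called the cell cycle genes homology region (CHR), TTTGAA or TTTAAA, and the CCAAT box of the factor NF-Y are known features of promoters with this timing. The DREAM complex, which represses such genes in resting cells, binds the CHR. In the basal layer of the epidermis, dividing keratinocytes replace the cells that leave to differentiate.

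RefSeq windows of 300 bases, 250 before to 50 after the annotated start (GRCm38.p6), were used for 9 of the 10 genes. *Kif20a* was not among them, so its promoter was not examined. The letters TTTGAA on either strand occurred in all 9 windows. Of all 32851 windows in that table, 17.9% held them. In 7 of the 9 windows, the element lay entirely within 30 bases of the start, against 2.90% of all windows. The stretch from 75 bases before to 30 bases after the start is printed for those 7 genes, 5′ to 3′ in the direction of transcription, because the position of the element is what they share. Capitals mark TTTGAA or its reverse complement TTCAAA and CCAAT or its reverse complement ATTGG.

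*Kif11*, chr19:37376307-37376411, plus strand: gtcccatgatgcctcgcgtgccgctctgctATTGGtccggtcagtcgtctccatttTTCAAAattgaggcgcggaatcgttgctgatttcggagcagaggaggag
*Kif15*, chr9:122951006-122951110, plus strand: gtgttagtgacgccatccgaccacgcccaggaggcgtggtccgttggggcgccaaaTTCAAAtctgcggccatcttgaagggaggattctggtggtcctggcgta
*Kifc1*, chr17:33890604-33890708, minus strand: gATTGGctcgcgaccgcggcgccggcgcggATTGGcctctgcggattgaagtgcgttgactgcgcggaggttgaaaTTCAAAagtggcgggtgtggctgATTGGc
*Kif22*, chr7:127042391-127042495, minus strand: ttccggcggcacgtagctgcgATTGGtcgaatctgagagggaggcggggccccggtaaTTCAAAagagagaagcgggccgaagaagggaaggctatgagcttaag
*Kif4*, chrX:100625990-100626094, plus strand: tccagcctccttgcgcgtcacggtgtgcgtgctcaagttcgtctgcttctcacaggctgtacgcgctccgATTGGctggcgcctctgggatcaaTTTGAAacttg
*Kif18b*, chr11:102925095-102925199, minus strand: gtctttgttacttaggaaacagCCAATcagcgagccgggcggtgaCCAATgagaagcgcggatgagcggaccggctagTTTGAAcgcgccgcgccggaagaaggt
*Kif23*, chr9:61946770-61946874, minus strand: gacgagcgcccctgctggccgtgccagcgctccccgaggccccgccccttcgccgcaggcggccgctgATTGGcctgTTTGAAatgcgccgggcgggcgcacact

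The element began 19 bases before the start in both *Kif11* and *Kif15* and 17 bases before it in *Kif22*. In *Kifc1*, *Kif23*, *Kif18b* and *Kif4* it began at base 2, 3, 4 and 20 of the transcript. *Kif2c* and *Kif14* held TTTGAA farther away, 103 and 228 bases before the start used by RefSeq, and both held TTTAAA as well (234 and 42 bases before it), as did 13.2% of all windows. For these genes the RefSeq start lies 3867 and 1505 bases from the 5′ end of the gene in the count table. Their windows may therefore not cover the start used in these cells. The same holds for *Kif4*, where that end lies 328 bases before the RefSeq start and the window reaches only 250. For the remaining genes with a window the distance is 0 to 51 bases. CCAAT or ATTGG occurred in 7 of the 9 windows, against 37.4% of all windows, and was not found in those of *Kif15* and *Kif2c*. The E2F-type letters TTTGGCGC, read on the reverse strand as GCGCCAAA, were found in the window of *Kif15* alone, 27 bases before the start and directly before TTCAAA, against 0.514% of all windows. TTTCCCGC and TTTGGCGG were in none of the 9 (1.07% and 0.56% of all windows). For comparison, TTTGAA was in 3 of 22 windows of transport and ciliary kinesins, within 30 bases of the start in 1 of them. Of 6 windows of the other mitotic kinesins, the list closest to the 10, it was in 1, within 30 bases of the start. It was in 10 of 19 windows of mitotic partners of the motors, within 30 bases of the start in 7, and in 12 of 18 windows of a list of late cell cycle genes, within 30 bases of the start in 9. CCAAT or ATTGG was in 15 of the 18 windows of late cell cycle genes and 14 of the 19 of mitotic partners. It was in 8 of the 22 windows of transport and ciliary kinesins and 2 of the 6 of other mitotic kinesins. TTTAAA was in 4, 5, 0 and 1 windows of these lists, in the same order. These matches describe letters in a window and do not show binding of a factor.

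The libraries held 20202517 to 25157117 counts, and 3 counts correspond to 0.119 to 0.148 counts per 1000000 (CPM), a floor that covers counting error only. Levels are CPM after TMM scaling of edgeR, with factors from 0.916 to 1.11. Changes are log2 fold changes of iASPP-KO over iASPP-WT from an edgeR fit with batch and condition over 14916 genes, with the model's standard error (SE) and a Benjamini-Hochberg adjusted p, called at a threshold of 0.05. *Ppp1r13l* itself had 320, 395 and 139 counts in the iASPP-KO libraries of batches 1, 2 and 3 and 697, 1100 and 472 in the matching iASPP-WT libraries, a log2 fold change of -1.45 (SE 0.184, adjusted p = 0.00296, edgeR). The 7 keratinocyte markers, among them *Krt5* and *Krt14*, together reached 22870 to 27420 CPM in every library, and none of the 7 was called between conditions. *Krt15* had the largest estimate of them (log2 fold change 1.095, SE 0.36, adjusted p = 0.145, edgeR). The other estimates ran from -0.22 for *Itgb4* to -0.02 for *Krt14*.

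All 10 kinesins passed the filter on low counts, and each was lower in the iASPP-KO library than in the iASPP-WT library in all 3 batches. Of the 10 genes, 7 fell significantly in iASPP-KO cells and 0 rose, where 1.95% of all tested genes were called lower and 2.17% higher. The median log2 fold change of the 10 was -1.33, against 0.01 over all tested genes. A fall in all 3 batches was seen for 10 of 10 members and for 19.7% of all tested genes. Since the members were chosen with earlier results known, these counts describe them and are no independent test. Pairing by batch carried these calls, as it did those of all other genes. Without the replicate block 0 of the 10 and 0 of all 14916 tested genes were called by edgeR. Of the 10, 2 had an unadjusted p under 0.05 in that fit. In bulk RNA, fewer dividing cells and less of these RNAs per dividing cell cannot be told apart. The plot of levels shows each gene in each library.

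**Figure D1:**
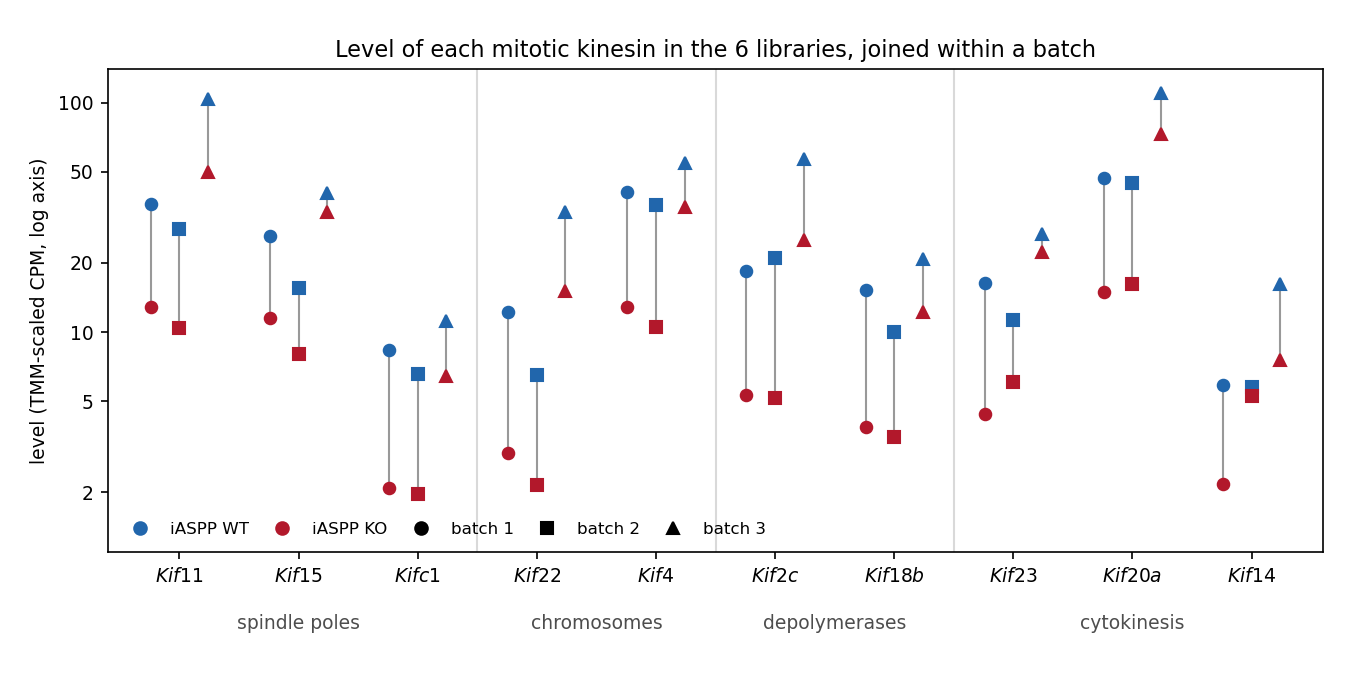
Level of the 10 mitotic kinesins in each library, as TMM-scaled CPM on a log axis. Blue points are iASPP-WT and red points iASPP-KO, the symbol gives the batch, and a line joins the libraries of 1 batch. In all 30 pairs the red point lies below the blue one, and batch 3 is highest in both conditions for all 10 genes.

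The first group of motors sets the distance between the spindle poles. *Kif11* (chromosome 19, 37376403 to 37421859), the kinesin-5 that slides antiparallel microtubules apart and makes the spindle bipolar, had levels of 12.8, 10.4 and 49.7 CPM in iASPP-KO batches 1, 2 and 3 and 36.0, 28.1 and 103.3 CPM in iASPP-WT. The iASPP-KO culture of batch 3 exceeded the iASPP-WT cultures of batches 1 and 2, so the conditions overlapped across batches and were separated within each of them. *Kif11* fell 2.49-fold (log2 fold change -1.32, SE 0.15, adjusted p = 0.00187, edgeR), with the smallest SE of the 10. *Kif15* (chromosome 9, 122951046 to 123018733), a kinesin-12 that can stand in for *Kif11*, had 11.5, 7.99 and 33.2 CPM in iASPP-KO and 26.2, 15.6 and 40.2 CPM in iASPP-WT. Its estimate was the smallest of the 10 and missed the threshold (log2 fold change -0.80, SE 0.205, adjusted p = 0.0609, edgeR), and within batch 3 its log2 ratio was -0.28. *Kif15* was called in 7 of the 10 alternative analyses that kept the batch term. Kinesin-14, encoded by *Kifc1* (chromosome 17, 33875659 to 33890661), walks towards the minus end, pulls poles together and gathers extra centrosomes. *Kifc1* had 2.09, 1.98 and 6.46 CPM in iASPP-KO and 8.39, 6.56 and 11.2 CPM in iASPP-WT. Its 3 iASPP-KO values all lay below its 3 iASPP-WT values, by a margin of 0.105 CPM, and it fell 2.80-fold (log2 fold change -1.49, SE 0.334, adjusted p = 0.0362, edgeR). When batch 1 or batch 2 was left out, *Kifc1* lost its call (adjusted p = 0.173 and 0.145, edgeR).

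*Kifc1* is the member whose reads are hardest to place. Of the 2316 windows of 42 bases in its longest GENCODE vM21 transcript, 52.9% also occur in a transcript of another gene, 1172 of them in *Kifc5b*, a near-identical copy on the same chromosome. Reads from these windows cannot be assigned to either gene, so the counts of both are uncertain. *Kifc5b* had 11, 51 and 93 counts in iASPP-KO and 60, 49 and 101 in iASPP-WT, with no common direction (log2 fold change -0.73, SE 0.603, adjusted p = 0.63, edgeR). For the other 9 members the shared windows made up 0% to 4.42%, the most in *Kif11*. No member shares exon bases with another gene on its own strand.

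A pair of members binds chromosome arms. *Kif22* (chromosome 7, 127027729 to 127042471), which pushes the arms away from the poles, had 2.98, 2.15 and 15.04 CPM in iASPP-KO and 12.2, 6.48 and 33.4 CPM in iASPP-WT. *Kif22* fell 2.96-fold (log2 fold change -1.57, SE 0.244, adjusted p = 0.00818, edgeR), and the fall in batch 1 alone, a log2 ratio of -2.03, was the largest of the 10 in that batch. *Kif4* (chromosome X, 100625737 to 100727214), which helps to shape condensed chromosomes and sets the length of the midzone with *Prc1*, had 12.8, 10.5 and 35.0 CPM in iASPP-KO and 40.7, 35.8 and 54.8 CPM in iASPP-WT. It fell 2.55-fold (log2 fold change -1.35, SE 0.22, adjusted p = 0.00972, edgeR). *Kif4* and *Kifc1* were the only members, 2 of 10, whose iASPP-KO libraries all lay below all iASPP-WT libraries, against 5.46% of all tested genes. For *Kif4* the margin was 0.798 CPM.

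A further pair takes microtubule ends apart. *Kif2c* (chromosome 4, 117159639 to 117182639) encodes MCAK, the kinesin-13 that corrects wrong attachments at centromeres. It had 5.30, 5.16 and 25.2 CPM in iASPP-KO and 18.4, 21.1 and 56.8 CPM in iASPP-WT, the iASPP-KO value of batch 3 again above the iASPP-WT values of the other batches. With a 3.13-fold fall (log2 fold change -1.64, SE 0.206, adjusted p = 0.00284, edgeR) *Kif2c* had the largest estimate of the 10, though its estimate ± 1 SE overlaps those of *Kif22*, *Kifc1*, *Kif18b*, *Kif4* and *Kif11*. *Kif18b* (chromosome 11, 102905529 to 102925124), a kinesin-8 that shortens astral microtubules together with *Kif2c*, had 3.88, 3.50 and 12.3 CPM in iASPP-KO and 15.2, 10.01 and 20.7 CPM in iASPP-WT. It fell 2.63-fold (log2 fold change -1.40, SE 0.274, adjusted p = 0.0215, edgeR). This call, like that of *Kifc1*, was lost without batch 1 or without batch 2 (adjusted p = 0.089 and 0.0775, edgeR).

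The last group works at the midzone and in cytokinesis. *Kif20a* (chromosome 18, 34624613 to 34633277), MKLP2, which carries the chromosomal passenger complex to the midzone, had 14.97, 16.1 and 72.7 CPM in iASPP-KO and 47.1, 44.4 and 110.4 CPM in iASPP-WT. It fell 2.34-fold (log2 fold change -1.23, SE 0.195, adjusted p = 0.00876, edgeR). *Kif23* (chromosome 9, 61915905 to 61946774), MKLP1, which forms the centralspindlin complex with *Racgap1*, had 4.41, 6.06 and 22.4 CPM in iASPP-KO and 16.3, 11.2 and 26.6 CPM in iASPP-WT. Its within-batch log2 ratios ran from -1.89 in batch 1 to -0.25 in batch 3, the widest range of the 10, and it was not called (log2 fold change -0.98, SE 0.291, adjusted p = 0.103, edgeR). With DESeq2 in place of edgeR, *Kif23* was called (adjusted p = 0.0366). *Kif14* (chromosome 1, 136466343 to 136531511), which brings citron kinase to the midbody, had 2.18, 5.25 and 7.52 CPM in iASPP-KO and 5.86, 5.74 and 16.2 CPM in iASPP-WT. In batch 2 its libraries held 117 and 140 counts, and the log2 ratio of -0.13 had an exact (Clopper-Pearson) 95% interval of -0.50 to 0.24, which covers counting error only. Of the 30 within-batch ratios, this was the only 1 whose interval reached 0. *Kif14* was not called (log2 fold change -0.88, SE 0.317, adjusted p = 0.185, edgeR), while *Racgap1* was (log2 fold change -1.31, SE 0.28, adjusted p = 0.0301, edgeR).

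**Figure D2:**
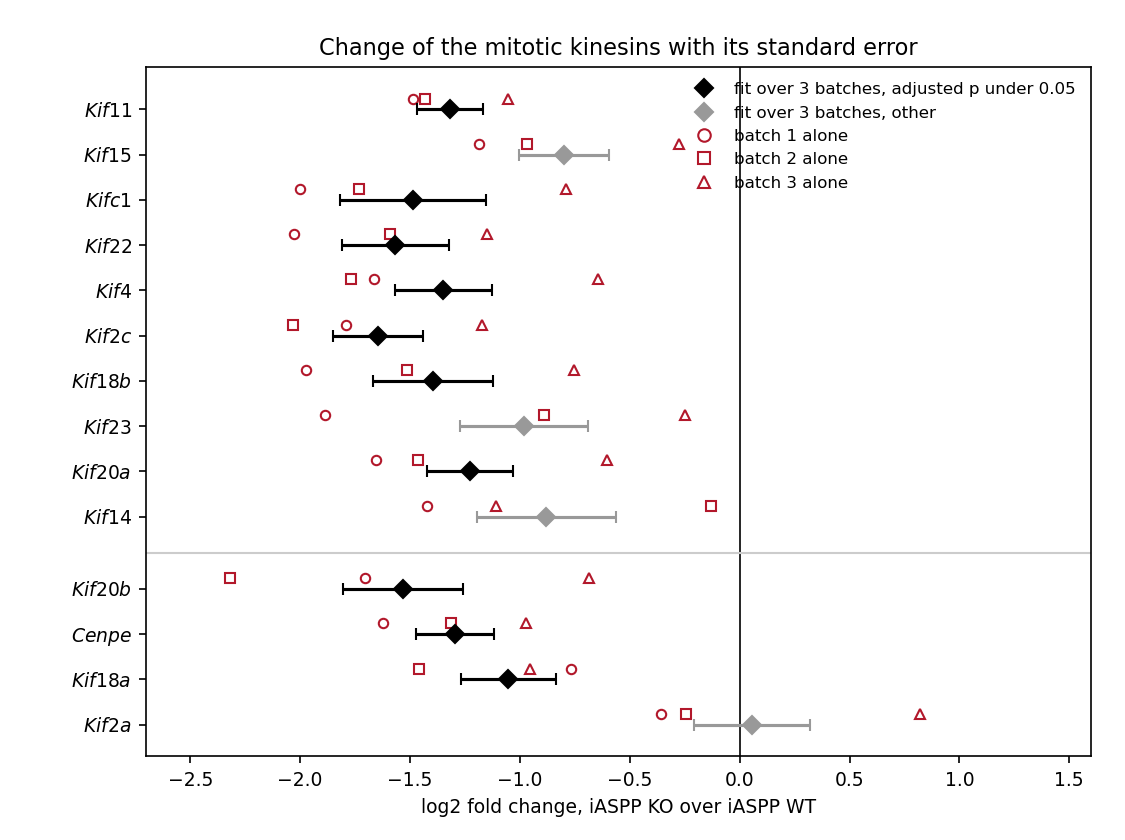
Log2 fold change of iASPP-KO over iASPP-WT for the 10 kinesins (above the line) and 4 other mitotic kinesins (below it). Diamonds with bars are the edgeR estimate over 3 batches with its standard error, black where the adjusted p is under 0.05, and open red symbols are the single batches. All 30 batch values of the 10 kinesins lie left of 0, and batch 3 lies closest to 0 for 9 of the 10.

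The size of the fall differed between batches. Batch 3 showed the smallest fall for 9 of the 10 members and batch 2 for *Kif14*. Batch 1 showed the largest fall for 8 members, and batch 2 for *Kif4* and *Kif2c*. Over the 10 genes the median log2 ratio reached -1.73 and -1.49 in the first and second batch and -0.77 in the third, where the medians over all tested genes were -0.01, 0.00 and 0.00. With 1 pair of libraries per batch these differences between batches have no replicate error and were not tested.

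The level of the motors also differed between batches in both conditions. In iASPP-WT cells the level in batch 3 was 1.43 to 3.58 times the mean of batches 1 and 2. This ratio was lowest in *Kif4* and highest in *Kif22*. Over all tested genes its median in iASPP-WT cells was 0.986, and 22.6% of them reached at least the lowest ratio of the 10. In iASPP-KO cells the level of the 10 in batch 3 was 2.02 to 5.85 times the mean of batches 1 and 2. The batch term of the same edgeR fit was significant for 9 of 10 members, against 15.8% of all tested genes. *Kifc1* was the exception (adjusted p = 0.0949, edgeR), and *Kif11* had the lowest value (adjusted p = 0.000109, edgeR), with batch 3 higher than batch 1 by 1.74 on the log2 scale. Without batch 3, 0 members differed between the remaining batches by edgeR, where 689 of 15261 tested genes did. In all, 7 of the 10 had more CPM in the iASPP-KO culture of batch 3 than in the iASPP-WT cultures of batches 1 and 2. The share of all tested genes with this order was not computed, so the count describes the 10 alone. Summed over the 10 genes, the level was 73.0, 69.1 and 279.5 CPM in iASPP-KO and 226.3, 185.1 and 473.6 CPM in iASPP-WT.

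Markers of other cell types also differed in batch 3. The 6 fibroblast markers summed to 33.7 to 51.5 CPM in the 4 libraries of batches 1 and 2 and to 453.8 and 668.7 CPM in the iASPP-KO and iASPP-WT libraries of batch 3. Between conditions, 2 of these 6 were called lower in iASPP-KO, *Col3a1* with the larger change (log2 fold change -0.87, SE 0.182, adjusted p = 0.0269, edgeR). The other 4 were not called, with estimates from -1.14 for *Lum* to 0.81 for *Pdgfra*. The log2 ratio of the summed fibroblast markers, iASPP-KO over iASPP-WT, was 0.12 and 0.23 in batches 1 and 2 and -0.56 in batch 3. The leukocyte markers summed to 15.2 to 57.6 CPM in iASPP-WT and 24.0 to 68.5 CPM in iASPP-KO, with 1 of 4 tested called higher, *Csf1r* (log2 fold change 1.11, SE 0.215, adjusted p = 0.0206, edgeR). Endothelial markers stayed at 2.72 to 13.02 CPM in sum and melanocyte markers at 229.3 to 740.0 CPM, with none called. No marker was at or under 3 counts in every library. The part of these cells in the kinesin results was not tested.

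Levels of different genes were compared per kilobase, with the exon length of the count table as divisor. For some members that length far exceeds the longest GENCODE vM21 transcript. It was 11020 against 4858 bases for *Kif15* and 7901 against 3398 for *Kif23*, but 3572 against 3326 for *Kif18b*. The order of genes given here therefore depends on this choice of length. *Kif20a* was the most abundant of the 10 in both conditions, with 15.5 ± 8.60 CPM per kb in iASPP-WT and 7.97 ± 7.61 in iASPP-KO (SD, n = 3 each), and it exceeded the next gene in each of the 6 libraries. *Kif4*, *Kif11* and *Kif2c* followed in iASPP-WT with 7.94 ± 1.79, 7.48 ± 5.54 and 7.36 ± 4.92 CPM per kb (SD, n = 3 each). Their order changed between libraries, *Kif4* leading in batches 1 and 2 and *Kif11* in batch 3. *Kif18b*, *Kif22*, *Kifc1*, *Kif15* and *Kif23* lay between 4.29 and 2.29 CPM per kb in iASPP-WT, each above the next in 2 of 3 libraries, so neighbours in this order are not separated. *Kif14* had the lowest mean, at 0.895 ± 0.58 in iASPP-WT and 0.481 ± 0.259 in iASPP-KO (SD, n = 3 each). It was the lowest in 5 of the 6 libraries, the exception being iASPP-KO batch 2, where *Kif22* was at 0.44 against 0.507 CPM per kb. By mean level *Kif22* moved from rank 6 in iASPP-WT to rank 8 in iASPP-KO, behind *Kif15* and *Kif23*, but it stayed above *Kif23* in 2 of the 3 iASPP-KO libraries.

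Of 5 other kinesins with a mitotic role, 4 had enough counts to be tested and 3 fell. *Kif20b*, a relative of *Kif20a* that acts late in cytokinesis, had a log2 fold change of -1.53 (SE 0.272, adjusted p = 0.0142, edgeR). *Cenpe*, the kinetochore motor that brings chromosomes to the metaphase plate, had -1.29 (SE 0.177, adjusted p = 0.00431, edgeR). *Kif18a*, which damps chromosome movements, had -1.05 (SE 0.215, adjusted p = 0.0254, edgeR). *Kif2a*, a depolymerase that is also used outside mitosis, had 0.06 (SE 0.263, adjusted p = 0.949, edgeR), and *Kif2b* had 0 counts in all 6 libraries, where up to 3 counts per library remain possible. Among 26 transport and ciliary kinesins, 22 were tested, 1 fell, 0 rose and the median log2 fold change was -0.13. The gene that fell was *Kif26b* (log2 fold change -2.25, SE 0.238, adjusted p = 0.00135, edgeR), with 251, 50 and 213 counts in iASPP-KO and 919, 443 and 784 in iASPP-WT, a kinesin-11 relative known from cell adhesion and polarity.

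**Figure D3:**
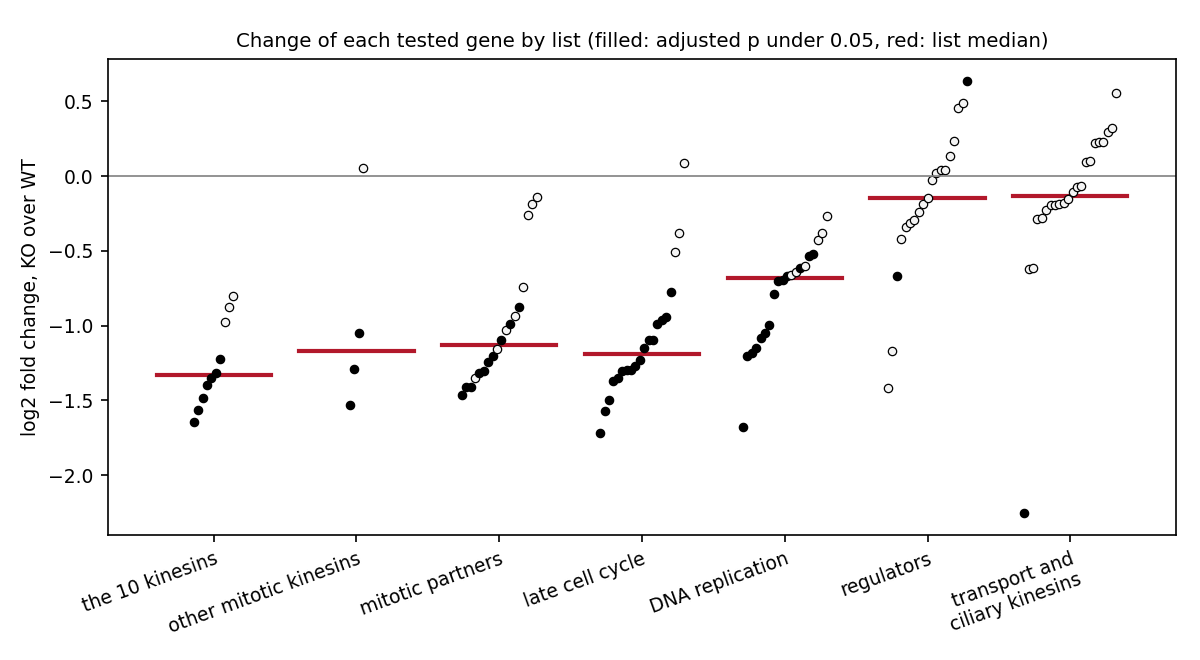
Log2 fold change of iASPP-KO over iASPP-WT for each tested gene of 7 lists, sorted within a list. Filled points have an adjusted p under 0.05, open points do not, and red lines are list medians, which run from -1.33 for the 10 kinesins to -0.13 for the transport and ciliary kinesins.

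The proteins that the motors work with were described from a list of 18, of which 10 fell and 0 rose, with a median log2 fold change of -1.13. *Prc1*, which bundles midzone microtubules and recruits *Kif4*, had a log2 fold change of -1.41 (SE 0.188, adjusted p = 0.00391, edgeR). *Tpx2*, which binds *Kif11* on the spindle, had -0.88 (SE 0.169, adjusted p = 0.0204, edgeR), and the largest called change of the list was that of *Aurka*, a spindle pole kinase, with -1.46 (SE 0.238, adjusted p = 0.00955, edgeR). *Cit*, the citron kinase that binds *Kif14*, and *Aurkb*, the kinase of the chromosomal passenger complex, had estimates of -1.35 and -1.16 but were not called (SE 0.347 and 0.311, adjusted p = 0.0612 and 0.0714, edgeR). Of 20 late cell cycle genes 17 fell and 0 rose (median -1.19), led by *Cdc20*, the activator of the anaphase-promoting complex, with -1.72 (SE 0.217, adjusted p = 0.00287, edgeR). Of 20 DNA replication genes 14 fell and 0 rose, with a smaller median of -0.68, and *Cdc6*, which loads the replicative helicase, had the largest called change with -1.68 (SE 0.333, adjusted p = 0.0222, edgeR). Without batch 1 or without batch 2 the number of replication genes that fell dropped to 5 and that of late cell cycle genes to 12. Over all tested genes the falls dropped from 291 to 151 without batch 1 and to 117 without batch 2.

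The regulators of this gene class were described from a list of 19. Of these, 1 fell and 1 rose, and the median log2 fold change was -0.15. *Cdkn1a*, the p53 target p21 that inhibits cyclin-dependent kinases, had 2883, 3365 and 2465 counts in iASPP-KO and 1678, 2523 and 1492 in iASPP-WT and rose (log2 fold change 0.64, SE 0.112, adjusted p = 0.0138, edgeR). *Rbl1*, the p107 pocket protein of DREAM, fell (log2 fold change -0.67, SE 0.138, adjusted p = 0.0263, edgeR). Both calls were lost without batch 1 and without batch 2. *Foxm1*, a transcription factor of the G2/M genes, had 133, 126 and 178 counts in iASPP-KO and 107, 153 and 242 in iASPP-WT, higher in batch 1 and lower in the other batches (log2 fold change -0.15, SE 0.28, adjusted p = 0.858, edgeR). *Mybl2*, the B-MYB that turns DREAM's core into an activator, had an estimate close to those of the motors but was not called (log2 fold change -1.17, SE 0.304, adjusted p = 0.0635, edgeR). *Lin9* and *E2f4*, subunits of these complexes, had -0.31 and 0.24 (SE 0.182 and 0.173, adjusted p = 0.45 and 0.573, edgeR).

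Set against the late cell cycle genes in the same library, the motors had a similar summed ratio in all 6. The ratio of their summed counts to those of the 20 late cell cycle genes, a separate set, was 33.5%, 32.5% and 36.8% in iASPP-KO batches 1, 2 and 3 and 37.3%, 36.0% and 33.8% in iASPP-WT, while the summed CPM of those 20 genes itself ran from 212.7 to 1401. Against the 20 replication genes, a comparison added after the values were seen, the ratio of summed counts was 12.4% and 13.2% in the iASPP-KO libraries of batches 1 and 2, 21.9% and 22.5% in the matching iASPP-WT libraries, and 30.4% and 31.1% in the iASPP-KO and iASPP-WT libraries of batch 3. Relative to the late cell cycle sum, single motors moved in different directions. *Kif2c*, *Kif22* and *Kif11* were lower in iASPP-KO in all 3 batches, with mean log2 differences of -0.46 ± 0.265, -0.38 ± 0.152 and -0.11 ± 0.09 (SD, n = 3 batches). *Kif15* was higher in all 3, by 0.29, 0.30 and 0.60 (mean 0.40 ± 0.178, SD, n = 3 batches). The other 6 had both signs, with *Kif14* the most variable at 0.05, 1.14 and -0.23. An exact sign-flip permutation test over 3 batches cannot reach the threshold, so these differences are given without a test.

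**Figure D4:**
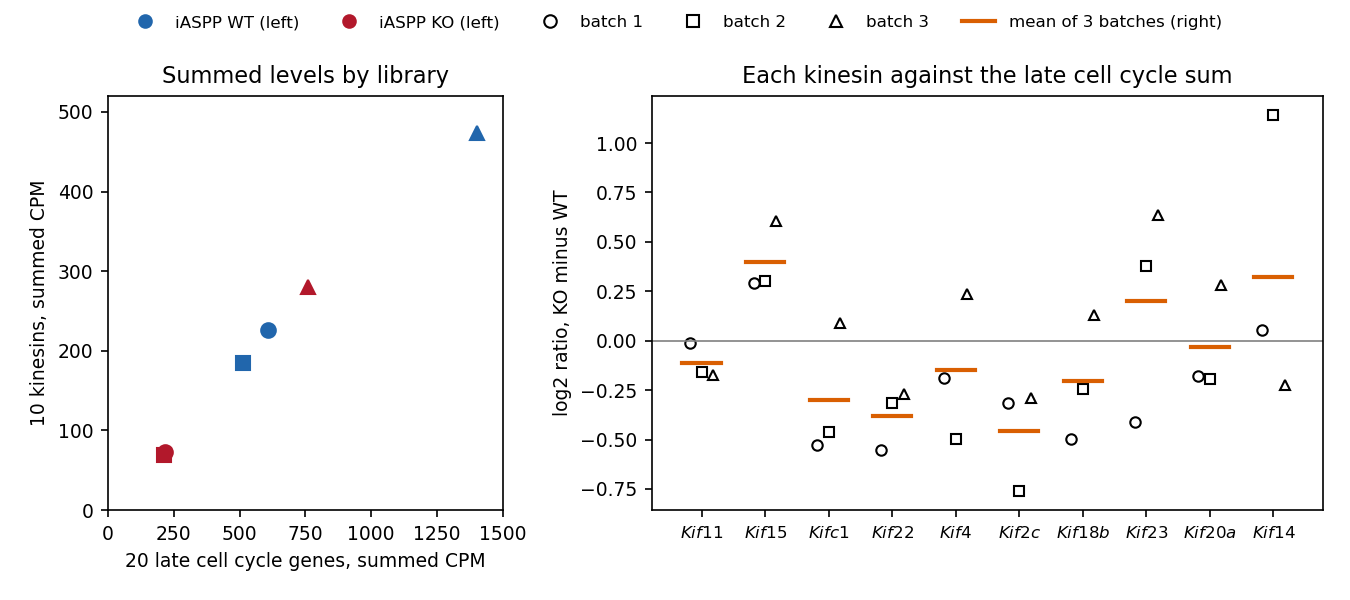
Left, summed CPM of the 10 kinesins against that of 20 late cell cycle genes in each of the 6 libraries (blue iASPP-WT, red iASPP-KO, symbol by batch). Right, log2 ratio of each kinesin's count to the summed late cell cycle counts, iASPP-KO minus iASPP-WT, for each batch, with the mean as a bar. On the left both sums are lowest in iASPP-KO batches 1 and 2 and highest in iASPP-WT batch 3, and on the right *Kif15* lies above 0 and *Kif11*, *Kif22* and *Kif2c* below 0 in all 3 batches.

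The pattern of the 10 genes over the 6 libraries was summarised as the mean of their log2 CPM, each centred on its own mean. This profile was -1.27, -1.27 and 0.63 in iASPP-KO batches 1, 2 and 3 and 0.42, 0.07 and 1.41 in iASPP-WT. Of the 10, *Kif20a* lay closest to it (root-mean-square distance 0.141 on the log2 scale over 6 libraries) and *Kif14* farthest (0.503). The median distance of all tested genes was 1.05. Because the 10 genes make up the profile, they lie nearer to it by construction, so this median is no test of their likeness. Outside the 10, the nearest genes were *Cenpe* (0.106), *Chst2* (0.115), *Knstrn* (0.124), *Prc1* (0.125) and *Knl1* (0.145). *Cenpe*, *Prc1*, *Knstrn* and *Knl1* encode spindle or kinetochore proteins. *Chst2* encodes a sulfotransferase of carbohydrate chains and was not called (log2 fold change -1.15, SE 0.374, adjusted p = 0.142, edgeR). With 6 libraries from 3 batches, this likeness covers batch and condition differences together.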

How the data were processed

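RNA-seq counts of 6 libraries were analysed, 3 per condition. The authors trimmed reads with cutadapt (2.10), aligned them with STAR (2.7.3) to mm10 (GRCm38) and deposited raw counts of reads per gene name from featureCounts (2.0.0), counted on exons by strand. A deposited table of the authors' own fold changes and p-values was not used.

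The test was edgeR's quasi-likelihood F test (edgeR 4.0.16, R 4.3.3) after filterByExpr and TMM scaling, on a model of batch plus condition, adjusted by Benjamini-Hochberg over 14916 genes. The SE is the absolute log2 fold change divided by the square root of F. The design follows the study's batch adjustment. Batch labels give the pairing, since the cells of a batch were divided between conditions, and deviations from condition means correlated at 0.302, 0.369 and 0.568 within batches. Cultures of a condition differed beyond sampling noise (chi-square per gene 35.4 to 146.9), so all were counted as separate.

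The members and lists were chosen with earlier results of these data known. Named genes are the members, the targeted gene, the copy *Kifc5b*, the other mitotic kinesins, fixed partners and regulators, the called gene of each other list with the largest change, and the 5 genes nearest the members' profile. Lists were described by counts and medians. Within-batch ratios are of TMM-scaled CPM, with exact 95% intervals. Promoter sequences and starts are from RefSeq (GRCm38.p6), transcripts from GENCODE vM21, and gene positions from the count table (GRCm38). Alternatives were no batch term, DESeq2 1.42.0, 3 other scalings, 2 other filters, robust dispersion and leaving out each batch. The steps were tested on simulated data. Python 3.11.15, pandas 2.3.3, numpy 2.4.6, scipy 1.17.1 and matplotlib 3.10.9 made tables and figures.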

Additional observations from a re-analysis of the deposited data

How the results depend on the processing

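Of the 11 alternatives, 10 kept the batch term, and under these 5 to 9 of the 10 kinesins were called lower, with the lowest count when batch 1 or batch 2 was left out and the highest without batch 3, with DESeq2 or with every gene kept. *Kif11*, *Kif22*, *Kif4*, *Kif2c* and *Kif20a* were called in all 10. *Kif15* was called in 7 of them and *Kif23* in 3, *Kif14* in 0, and *Kifc1* and *Kif18b* in 8. None of the 10 reversed its direction under any of the 11. Without the replicate block, that is without pairing by batch, 0 of the 10 kinesins were called, 2 had an unadjusted p under 0.05, and over all genes 0 fell and 0 rose in edgeR. Over all genes the falls numbered 455 with library totals alone and 491 with every gene kept (291 as reported), and the rises 624 with every gene kept (323 as reported). Leaving out each batch in turn gave 117 to 662 falls and 169 to 793 rises. The number of kinesins that differed between batches was 9 as reported, 0 without batch 3, 8 without batch 1 or 2, and 9 or 10 under the other alternatives that kept the batch term. Over all tested genes it was 2354 as reported and 689 without batch 3. The median over all genes was 0.01 as reported and -0.07 with library totals alone, the setting that moved it most. With 44 to 2478 counts per member and library, counting error is smallest for *Kif20a* and *Kif11* and largest for *Kifc1*, *Kif14* and *Kif22*.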
